A study of Mus musculus with 8 samples.

Results

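The genes described are 10 adhesion genes of leukocytes, chosen by symbol from the 25247 genes of the count table: the integrin alpha chains Itgal, Itgam, Itgax, Itgad and Itgae, the beta chains Itgb2 and Itgb7, and the ligands Icam1, Icam2 and F11r. All 10 were found in the table under 1 mouse Ensembl identifier each. Expression was measured by bulk RNA sequencing of Langerhans cells, antigen-presenting cells that live among keratinocytes, sorted from ear skin of C57BL/6 mice that were wild type (WT) or labelled EZH2 -/- (KO). Ezh2 is the histone H3K27 methyltransferase of Polycomb repressive complex 2, and the series, by its title, concerns its part in Langerhans cell migration and contact allergy. The labels do not give the part of Ezh2 that was deleted, the driver of the deletion, the age of the mice or whether each library is a mouse of its own. The p-values therefore rest on a spread between libraries that may be technical. Viable cells with CD45, MHC class II, CD24 and EpCAM on their surface were sorted to a stated purity of at least 99.5%. The sort left out cells that carry Ly6G or CD103, and CD103 is the protein of Itgae.

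Each of the 8 libraries carries a code, and titles and descriptions disagree on 4 of them. RMN030 and RMN031 are WT and RMN038 and RMN039 are KO by both. RMN032 and RMN033 are KO by title and WT by description, and RMN036 and RMN037 are WT by title and KO by description. Results are therefore given for the 4 undisputed libraries (2 against 2), for the title codes (4 against 4) and for the description codes (4 against 4). By number, codes 030 to 033 are called here the earlier run and codes 036 to 039 the later one. In both the undisputed and description-code comparisons the genotype and the code run cannot be told apart. These comparisons share libraries and are not independent of each other.

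Library totals ranged from 11051402 to 18966195 counts. Ezh2 was at 15.7 to 22.4 CPM (the count scaled to a common library total) in WT and 10.5 to 15.2 CPM in KO by title code (exact permutation p = 0.0286, n = 4 each), and at 14.9 to 22.4 and 10.5 to 19.0 CPM by description code (exact permutation p = 0.457, n = 4 each). The Langerhans cell marker Cd207 (langerin) was at 9706 to 11960 CPM and the sort marker Epcam at 558 to 673 CPM in all libraries, as the cell label requires. Transcripts of other cells were present: 7 keratinocyte markers summed to 11910 to 15300 CPM. Without Cd4 and Bcl11b, which were well above 0 in all libraries, the 15 other T cell and thymocyte markers summed to 304 and 306 CPM in RMN030 and RMN031 and to 5.27 to 10.1 CPM in the other 6 libraries. Markers of other cells moved with the code run: 5 red blood cell genes summed to 122 to 226 CPM in the earlier and 580 to 1355 CPM in the later run, and 5 fibroblast genes to 18.0 to 36.5 and 70.01 to 122.3 CPM. The mitochondrial share of counts was 1.02 to 1.87% in the earlier run and 3.76 to 4.03% in the later run. In such bulk samples, fewer cells of a type and less RNA per cell cannot be told apart.

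Integrins are receptors made of an alpha and a beta chain that hold cells to each other and to matrix. The beta2 chain, encoded by Itgb2, pairs with the alpha chains CD11a (Itgal, forming LFA-1), CD11b (Itgam, forming Mac-1), CD11c (Itgax) and CD11d (Itgad), and these alpha chains need it to reach the cell surface. The beta7 chain, encoded by Itgb7, pairs with the alphaE chain (Itgae), which binds E-cadherin of epithelial cells, and with the alpha4 chain (Itga4). ICAM-1 and ICAM-2 are ligands of LFA-1, ICAM-1 also of Mac-1, and F11r encodes JAM-A, a tight junction protein that LFA-1 can bind. Talin and kindlin bind the tails of beta chains and switch integrins to the form that binds ligand.

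The genes Itgam, Itgax and Itgad lie side by side on the plus strand of chromosome 7 (GRCm38), at 128062640 to 128118491, 128129547 to 128150657 and 128154376 to 128223816. Itgax and Itgad are paralogs, and part of their transcripts is identical. The longest identical run is shown because a read that lies wholly within it cannot be given to either gene by its own sequence. It covers 188 coding bases and spans exons 11, 12 and 13 of Itgax (chromosome 7, 128135612 to 128136062) and exons 12, 13 and 14 of Itgad (128189340 to 128189789), and it reads as follows on the plus strand.
Itgax and Itgad, shared run: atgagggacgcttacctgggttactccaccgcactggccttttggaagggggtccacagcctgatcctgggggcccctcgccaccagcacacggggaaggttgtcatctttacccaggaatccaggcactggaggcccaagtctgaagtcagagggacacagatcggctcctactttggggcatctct
Of all 50-base words in Itgax transcripts, 384 (8.02%) also occurred in Itgad transcripts, and of those in Itgad transcripts 897 (19.7%) occurred in another gene. How the authors' counting treated reads that map to several places is not given in the sources used here, so the level of Itgad, the weaker gene, is uncertain. Itgal, Itgae, Itgb7 and Icam2 shared no such word with any other annotated transcript. Itgam shared 66.3% of its words with Gm49368, a gene model on the same strand that overlaps it, and Icam1 shared 13.1%, mostly with the antisense model Gm47079. Gm49368 covers 68.67% of the exon bases of Itgam. Neither model has a row in the count table analysed here, which does not show whether the annotation used for counting held them. How reads that lie in overlapping genes were counted is not given in the sources used here either. The level of Itgam may therefore be too low, and so may that of Icam1 if strands were not told apart.

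Promoters of 5 of the 10 genes are in the RefSeq table (GRCm38.p6). The 250 bases before the start are shown for Icam1, the ligand with the highest level, and for Itgam and Itgax, the alpha chains with the highest levels per kilobase, each 5′ to 3′ on the plus strand. They lie at chr9:21015690-21015939, chr7:128062390-128062639 and chr7:128129300-128129549. Capitals mark the letters GGAAATTCC, which resemble a binding site of NF-kB, GAGGAA or its reverse complement, the core of sites of the myeloid factor PU.1, and TGANTCA, the site of AP-1. All were searched on both strands.
Icam1: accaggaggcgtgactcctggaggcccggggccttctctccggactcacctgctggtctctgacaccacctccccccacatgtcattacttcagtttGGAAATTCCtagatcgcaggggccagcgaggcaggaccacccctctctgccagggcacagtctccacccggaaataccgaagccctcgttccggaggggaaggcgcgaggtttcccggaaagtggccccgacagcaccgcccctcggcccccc
Itgam: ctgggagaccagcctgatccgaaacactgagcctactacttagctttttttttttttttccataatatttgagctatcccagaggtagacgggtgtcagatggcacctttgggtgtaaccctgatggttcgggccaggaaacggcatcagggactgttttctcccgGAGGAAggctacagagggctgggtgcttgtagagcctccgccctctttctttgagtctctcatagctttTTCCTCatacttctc
Itgax: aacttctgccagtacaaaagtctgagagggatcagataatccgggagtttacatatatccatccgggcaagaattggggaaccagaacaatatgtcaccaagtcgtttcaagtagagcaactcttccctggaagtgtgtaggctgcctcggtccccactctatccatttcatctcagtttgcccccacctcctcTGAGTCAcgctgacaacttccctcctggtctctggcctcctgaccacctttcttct
GGAAATTCC occurred in the Icam1 promoter, 153 bases before the start, and in 0.29% of all 32851 promoters of this length. GAGGAA occurred in those of Itgam and F11r and in 23.25% of all promoters, and TGANTCA in those of Itgax and F11r and in 6.75%. The standard NF-kB consensus, found in 3.9% of promoters, matched none of the 5. These matches describe letters and say nothing about binding.

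Among the alpha chains that pair with Itgb2, Itgax was the main transcript in every library. Levels of different genes are compared as CPM per kilobase of merged exons (GENCODE M21). On that scale Itgax was at 79.4 ± 6.2, Itgam at 16.6 ± 1.5, Itgad at 4.79 ± 1.35 and Itgal at 0.678 ± 0.942 (SD over the 8 libraries). The lowest Itgax level, 67.1, was above the highest Itgam level, 18.7, and the lowest Itgam level, 14.7, above the highest Itgad level, 7.27. Itgal was below Itgad in every library. Itgb2 itself was at 86.1 ± 7.5 per kilobase and overlapped with Itgax. Icam1 (chromosome 9, 21015985 to 21028817, plus strand) was at 126.5 ± 18.6 and F11r (chromosome 1, 171437535 to 171464603, plus strand) at 64.0 ± 4.2. Itgb7 was at 29.5 ± 6.4, Itgae at 2.10 ± 0.73 and Icam2 at 0.265 ± 0.309 per kilobase. Icam1 lay above Itgb2 in every library, and with the longest transcript as length its mean was 218 per kilobase, so its distance from the other genes depends on the length used.

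Itgax took 75.2 to 80.6% of the summed level of the alpha chains that pair with Itgb2, Itgam 14.0 to 20.7%, Itgad 3.30 to 6.83% and Itgal 0.0151 to 2.04%. Itgal was at 1.997% in RMN030 and 2.04% in RMN031, and the 6 other libraries were at 0.302% or less. The ratio of Itgb2 to the sum of its alpha chains per kilobase lay between 0.792 and 0.917 in all libraries. Its log2 differed between the title-code groups by -0.06 (exact permutation p = 0.371, n = 4 each) and between the description-code groups by -0.04 (exact permutation p = 0.457, n = 4 each). The ratio of Itgb7 to summed Itgae and Itga4 was far wider, from 4.95 to 13.1, so that Itgb7 transcripts exceeded those of both partner chains together in each library. Its log2 differed by 0.08 by title code (exact permutation p = 0.771, n = 4 each) and by -0.33 by description code (exact permutation p = 0.400, n = 4 each). Neither ratio differed beyond the spread between libraries. The alpha chain shares and the Itgb2 ratio take the counts of Itgam and Itgad as given, and both levels are uncertain.

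**Figure D1:**
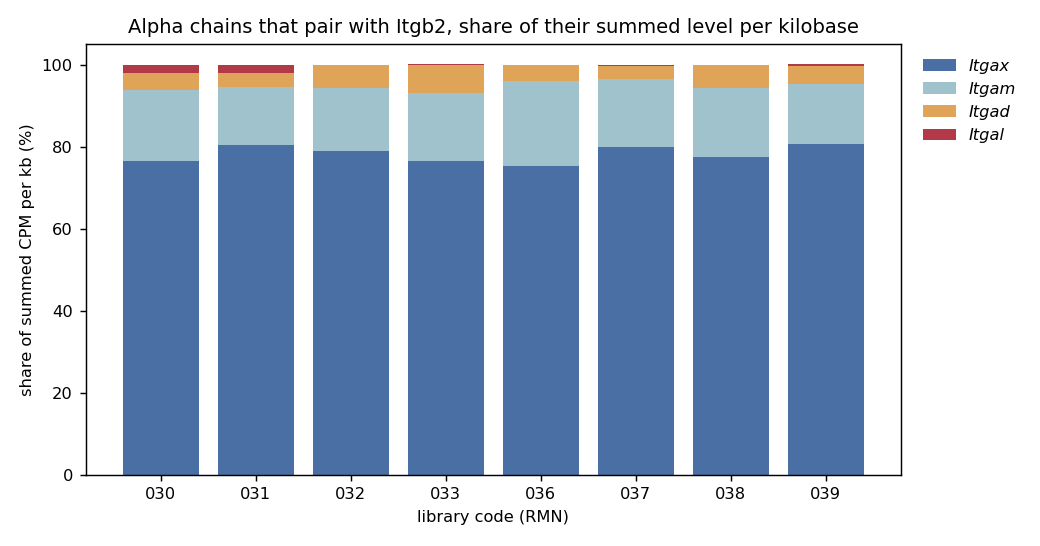
Share (%) of each alpha chain in the summed CPM per kilobase of Itgax, Itgam, Itgad and Itgal, 1 bar per library in the order of the codes. Itgax fills 75.2 to 80.6% of each bar, and the Itgal segment is visible in RMN030 and RMN031, at 1.997 and 2.04%.

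Itgal, the alpha chain of LFA-1, was the one member that passed the test. It lies on chromosome 7 at 127296260 to 127335138 on the plus strand. Its level was 14.3 CPM in RMN030 and 14.6 in RMN031. RMN032 and RMN033 were at 0.981 and 0.106 CPM, RMN036 and RMN037 at 0.672 and 1.74, and RMN038 and RMN039 at 1.28 and 1.99. It was thus high in the WT libraries RMN030 and RMN031 and low in the 6 others, whatever their genotype. In the undisputed libraries it was 8.60-fold lower in KO (WT 14.4 ± 0.2 CPM, KO 1.64 ± 0.50 CPM, SD over n = 2 each). The log2 fold change was -3.10 (SE 0.42, edgeR adjusted p = 0.00469). Of the 14727 genes tested there, 0.794% were called, 0.448% higher and 0.346% lower. By title code its log2 fold change was -2.88 (SE 0.98, edgeR adjusted p = 0.998) and by description code -2.37 (SE 0.95, edgeR adjusted p = 0.292). The description-code value turned to 0.17 (SE 1.34, adjusted p = 0.975) in limma voom with quality weights.

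Within the earlier code run, the title codes set RMN030 and RMN031 against RMN032 and RMN033, and Itgal was lower in KO there (log2 fold change -4.81, SE 0.62, edgeR adjusted p = 0.00693). In that comparison 0.375% of genes were called, 0.0394% higher and 0.335% lower. Within the later run it was at 0.672 and 1.74 CPM in WT and 1.28 and 1.99 CPM in KO (log2 fold change 0.46, SE 0.93, edgeR adjusted p = 0.965). The difference between the runs was 5.24 on the log2 scale (SE 1.04, edgeR adjusted p = 0.165, and 9.4e-07 without a filter on low counts). In this test of the difference edgeR called 0 of 9 members and 0.0478% of genes (0.0342% with a positive and 0.0137% with a negative difference). At an unadjusted p under 0.05 there were 2 of 9 members (Itgal and Itgb7) and 1154 of 14630 genes. Without RMN030 and RMN031 the log2 fold change was -0.16 (SE 1.04) by title code and 1.45 (SE 1.03) by description code.

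T cell transcripts moved with Itgal. All 17 listed T cell markers were higher in RMN030 and RMN031 than in each of the 6 other libraries, and 15 were at least 2 times as high. In the 6 other libraries 10 of the 17 were at 0 in at least 1 library, Cd8b1, a CD8 chain, and Dntt, which adds bases to rearranging antigen receptor genes, in all 6. Cd247, Trbc1, Trbc2, Lck, Tcf7, Cd4 and Bcl11b were above 0 in each of the 6. There the T cell factor gene Tcf7 was at 0.106 to 2.26 CPM and Itgal at 0.106 to 1.99 CPM. The Langerhans cell and sort markers summed to 83670 and 73290 CPM in RMN030 and RMN031 and to 66370 to 74080 CPM in the other 6. The part of T cell RNA in the Itgal difference was not tested. Genes whose pattern over the 8 libraries was most like that of Itgal, by Pearson's r of log2(CPM + 1) among 13831 genes, were Lcp1 (r = 0.994), the actin-bundling plastin of leukocytes, Tcf7 (0.993), a T cell transcription factor, Lrp10 (0.972), the T cell costimulator Cd28 (0.969) and the T cell receptor subunit Cd3e (0.969). With 2 libraries high and 6 low, these coefficients rest on RMN030 and RMN031.

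Icam2 was the only other member carried by the same pair of libraries. It lies on chromosome 11 at 106377656 to 106388075 on the minus strand and encodes a ligand of LFA-1 found on endothelial cells and lymphocytes. It had 22 and 20 counts in RMN030 and RMN031, 0 and 5 in RMN032 and RMN033, 8 and 5 in RMN036 and RMN037, and 0 and 2 in RMN038 and RMN039. These are 1.68 and 1.08 CPM in RMN030 and RMN031 and at most 0.538 CPM elsewhere. At 0 counts, levels up to 0.184 CPM in RMN032 and 0.213 CPM in RMN038 are possible, by counting error only. In the undisputed libraries 42 counts in WT stood against 2 in KO, a ratio of 16.7 (95% exact counting interval 4.34 to 142), and the edgeR adjusted p was 0.322. The filter on low counts left it out of the 8-library fits. Without that filter its log2 fold change was -2.92 (SE 1.23, edgeR adjusted p = 0.731) by title code and -1.50 (SE 1.24, edgeR adjusted p = 0.646) by description code, and within the earlier run by title code it was -3.29 (SE 1.22, edgeR adjusted p = 0.528). By title code all WT libraries (0.300 to 1.68 CPM) were above all KO libraries (0 to 0.264 CPM; exact permutation p = 0.0286, n = 4 each, the smallest such a design gives). The closest of these were RMN037 and RMN033, with 5 counts each. By description code the groups overlapped (0 to 1.68 CPM in WT, 0 to 0.538 CPM in KO; exact permutation p = 0.343, n = 4 each). Of the 14630 genes tested by title code, which do not include Icam2, 2.94% did not overlap, 1.41% higher and 1.53% lower in KO. The share among genes with counts as low as those of Icam2 was not computed. B cell markers summed to 1.99 and 1.83 CPM in RMN030 and RMN031 and to at most 0.672 CPM elsewhere, and the part of lymphocyte RNA in the Icam2 level was not tested. The 5 endothelial markers in the table summed to 2.14 and 4.15 CPM in RMN030 and RMN031 and to 0.336 to 5.87 CPM elsewhere. In RMN030 only Pecam1 was above 0, and in RMN031 Pecam1, Tek (1.08 CPM, and 0 in the 7 other libraries) and Plvap (0.108 CPM), while Cdh5 and Kdr were at 0 in both. The part of endothelial RNA was not tested either.

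A level in the lower of RMN030 and RMN031 of at least 2 times the highest of the 6 other libraries was found for 2 of 10 members, Itgal and Icam2. The same held for 0.611% of the 14727 genes tested in the undisputed comparison. The members were chosen with earlier results of these data known, and Icam2 passed the filter on low counts there through RMN030 and RMN031 alone. The 2 shares are therefore a description and not a test. The 8 other members were present in all libraries, and their level in RMN030 and RMN031 was 0.863 to 1.46 times their mean in the other 6.

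**Figure D2:**
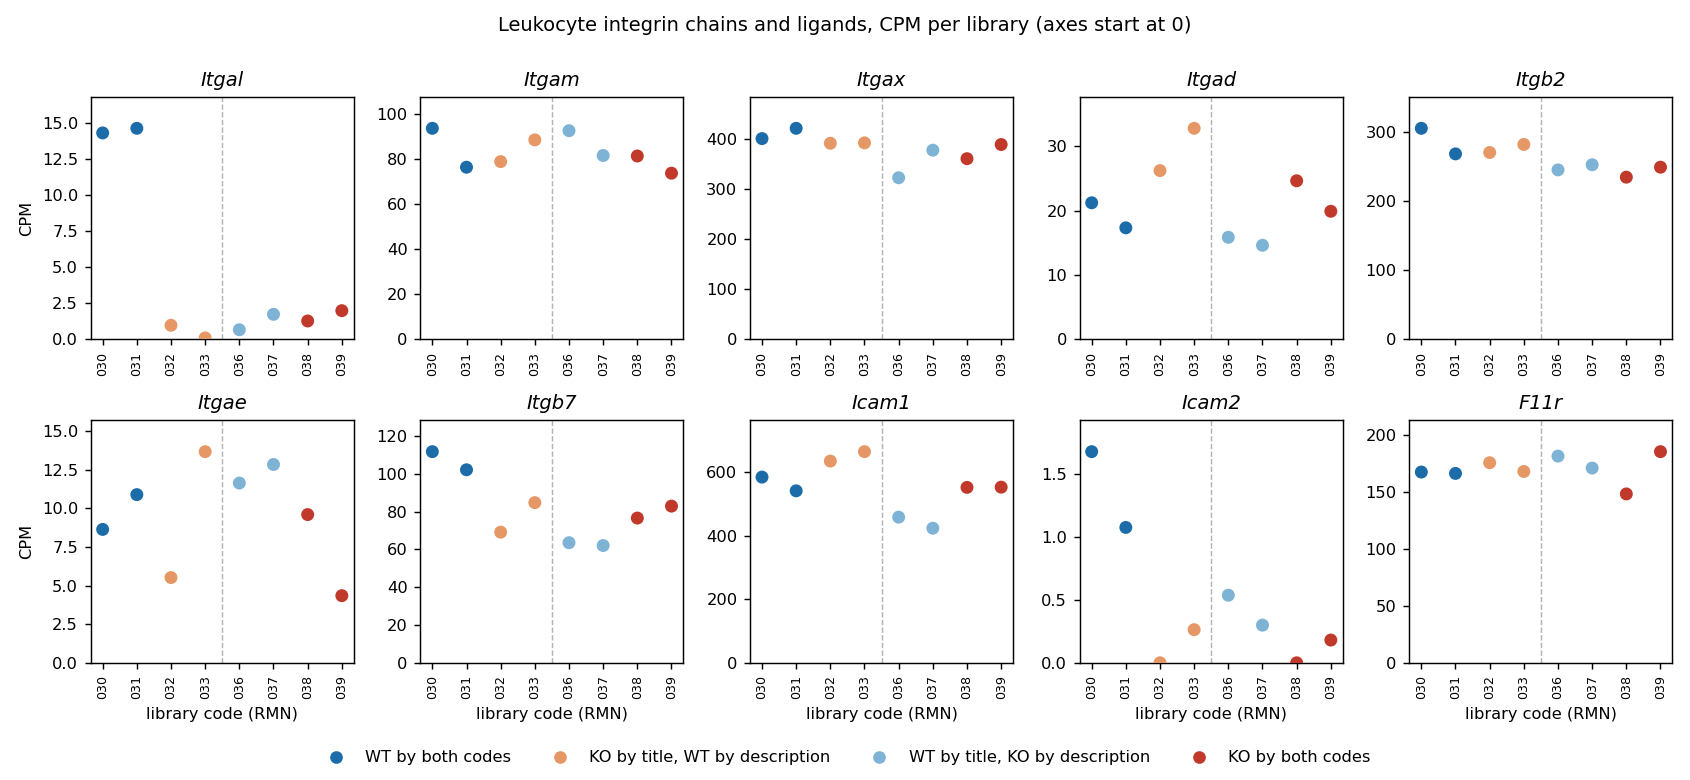
CPM of each member (y axis, from 0, own scale per gene) in the 8 libraries (x axis, in code order), coloured by what the title and description codes give, with a dashed line between the code runs. Itgal and Icam2 are high in RMN030 and RMN031 only, while the WT and KO groups of Itgam and F11r overlap under every reading.

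Itgb7 was also highest in RMN030 and RMN031, by a smaller margin. It lies on chromosome 15 at 102215995 to 102231944 on the minus strand. Its level was 111.7 and 102 CPM in RMN030 and RMN031, 69.1 and 84.7 in RMN032 and RMN033, 63.5 and 62.0 in RMN036 and RMN037, and 76.6 and 82.9 in RMN038 and RMN039. By title code, then, both KO libraries were below both WT libraries in the earlier run and above them in the later run. The share of all genes that turn in this way was not counted. With 2 against 2 libraries in a run, an exact permutation p cannot go below 0.333. The log2 fold changes were -0.51 (SE 0.17, edgeR adjusted p = 0.450) in the earlier and 0.37 (SE 0.13, edgeR adjusted p = 0.618) in the later run. The difference between the runs was 0.89 (SE 0.22, unadjusted p = 0.00175, edgeR adjusted p = 0.286) and did not pass. In the undisputed libraries the log2 fold change was -0.38 (SE 0.17, edgeR adjusted p = 0.433), by title code -0.12 (SE 0.19, edgeR adjusted p = 0.998) and by description code -0.33 (SE 0.16, edgeR adjusted p = 0.434). T cell markers stood apart in the same 2 libraries, and their part in the Itgb7 level was not tested. Without RMN030 and RMN031 the title-code value was 0.31 (SE 0.13, edgeR adjusted p = 0.812).

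**Figure D3:**
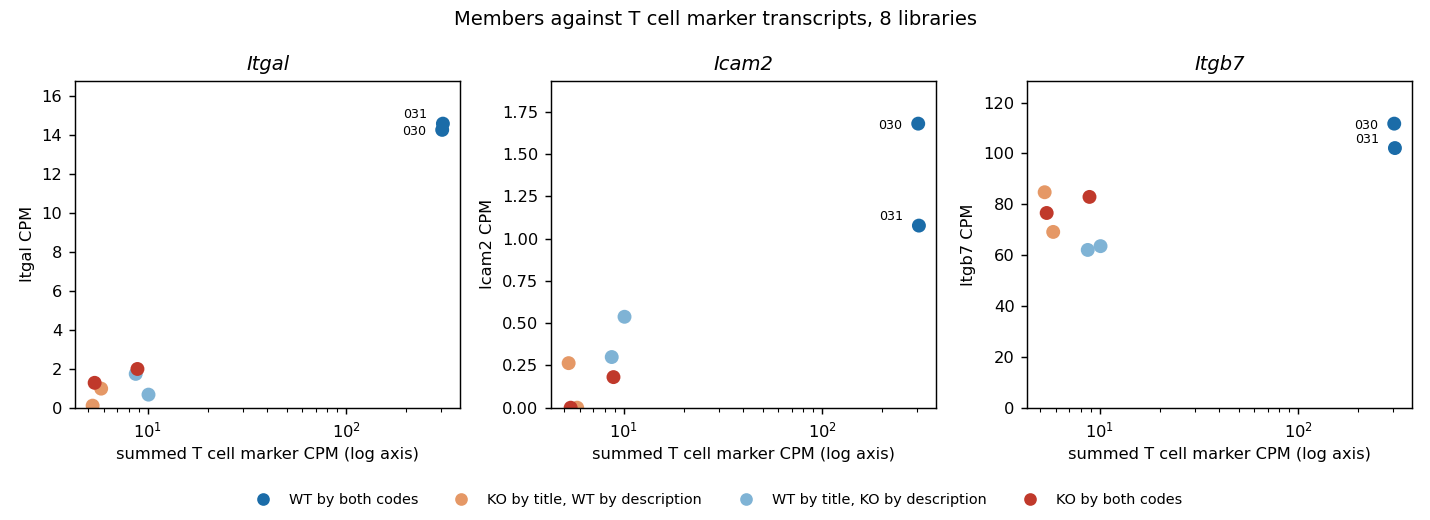
CPM of Itgal, Icam2 and Itgb7 (y axes, from 0) against the summed CPM of 15 T cell and thymocyte markers, without Cd4 and Bcl11b (x axis, log scale), 1 point per library coloured by the codes. RMN030 and RMN031 stand at 304 and 306 CPM of T cell markers, and the 6 other libraries lie between 5.27 and 10.1 CPM.

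Itgae, whose protein CD103 the sort selected against, had a low level in every library: 8.63, 10.9, 5.51, 13.7, 11.6, 12.8, 9.59 and 4.34 CPM in code order from RMN030 to RMN039. It lies on chromosome 11 at 73090583 to 73147446 on the plus strand. The groups overlapped under each reading. The log2 fold change was -0.43 (SE 0.42) in the undisputed libraries, -0.41 (SE 0.33) by title code and 0.03 (SE 0.34) by description code. The undisputed value rested on single KO libraries: it was -1.12 (SE 0.52, edgeR adjusted p = 0.376) without RMN038 and 0.01 (SE 0.46, edgeR adjusted p = 0.997) without RMN039. Markers of the epidermal gamma-delta T cells, which carry CD103, summed to 3.19 to 9.28 CPM. The lowest value, in RMN039, is 48 counts.

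Icam1 and Itgad were higher in KO than in WT within both code runs under the title codes, without passing the test over all genes. Icam1 was at 585 and 541 CPM in the WT libraries RMN030 and RMN031 and at 635 and 665 in the KO libraries RMN032 and RMN033. In the later run it was at 459 and 424 CPM in the WT libraries RMN036 and RMN037 and at 552 and 553 in the KO libraries RMN038 and RMN039. The groups did not overlap within a run, but did over all 8 libraries, as the later run was lower in either genotype. The title-code log2 fold change was 0.25 (SE 0.11, unadjusted p = 0.0402, edgeR adjusted p = 0.998). With the code run as a covariate it was 0.26 (SE 0.08, unadjusted p = 0.00613, edgeR adjusted p = 0.637), and within the runs it was 0.17 (SE 0.13) and 0.35 (SE 0.07).

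Under the description codes, which put the later run in the KO group, the fitted value of Icam1 had the opposite sign. Its log2 fold change was -0.24 (SE 0.11, edgeR adjusted p = 0.351), with 606.5 ± 54.5 CPM for WT against 497 ± 65.9 for KO (SD over 4 libraries each). In the undisputed libraries it was 0.02 (SE 0.13, edgeR adjusted p = 0.981). The direction of Icam1 thus turned on the reading of 4 labels. Genes with the most similar pattern over the 8 libraries were Cacfd1 (r = 0.988), the stress-induced transcription factor gene Atf3 (0.978), the fatty acid receptor gene Ffar4 (0.970), Il34 (0.970), the cytokine that Langerhans cells depend on, and Mthfs (0.968), an enzyme of folate metabolism. Such coefficients over 8 libraries that share the run difference are descriptions.

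Itgad, the CD11d chain, was at 21.2 and 17.3 CPM in RMN030 and RMN031 and at 26.2 and 32.8 in RMN032 and RMN033. It was at 15.9 and 14.6 CPM in RMN036 and RMN037 and at 24.6 and 19.9 in RMN038 and RMN039. By title code KO lay above WT in each run, at 25.9 ± 5.3 against 17.3 ± 2.9 CPM over both (SD, exact permutation p = 0.0571, n = 4 each). The log2 fold change was 0.58 (SE 0.19, unadjusted p = 0.009995, edgeR adjusted p = 0.998), and 0.58 in both the earlier (SE 0.24) and the later run (SE 0.24). By description code it was -0.33 (SE 0.23, edgeR adjusted p = 0.609) and in the undisputed libraries 0.25 (SE 0.27, edgeR adjusted p = 0.813). Itgax, which shares sequence with Itgad at a far higher level, had a title-code log2 fold change of 0.01 (SE 0.09).

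Red blood cell transcripts, like both genes, were higher in KO than in WT within each run by title code. They summed to 122 to 150.5 CPM in WT and 225 to 226 in KO of the earlier run. In the later run they summed to 580 to 861 CPM in WT and 1272 to 1355 in KO. Between the runs the directions differed: these transcripts were higher in the later run, while Icam1 and Itgad were lower there in either genotype. The part of red blood cell RNA in the Icam1 and Itgad differences was not tested.

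Among the 14630 genes tested by title code, 6.9% were separated without overlap in the same direction in both runs, and 3.32% were higher in KO without overlap within both runs, against 2 of the 9 members tested, Icam1 and Itgad. A further 3.58% of genes were lower in this way, with 0 of the 9 members tested. Icam2, which the filter on low counts left out of this count, was also separated in both runs, with KO below WT. Over the 8 libraries Itgad and Icam1 moved together (Pearson's r = 0.913 of log2(CPM + 1)), a description that rests on the run and on the 4 libraries in each.

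**Figure D4:**
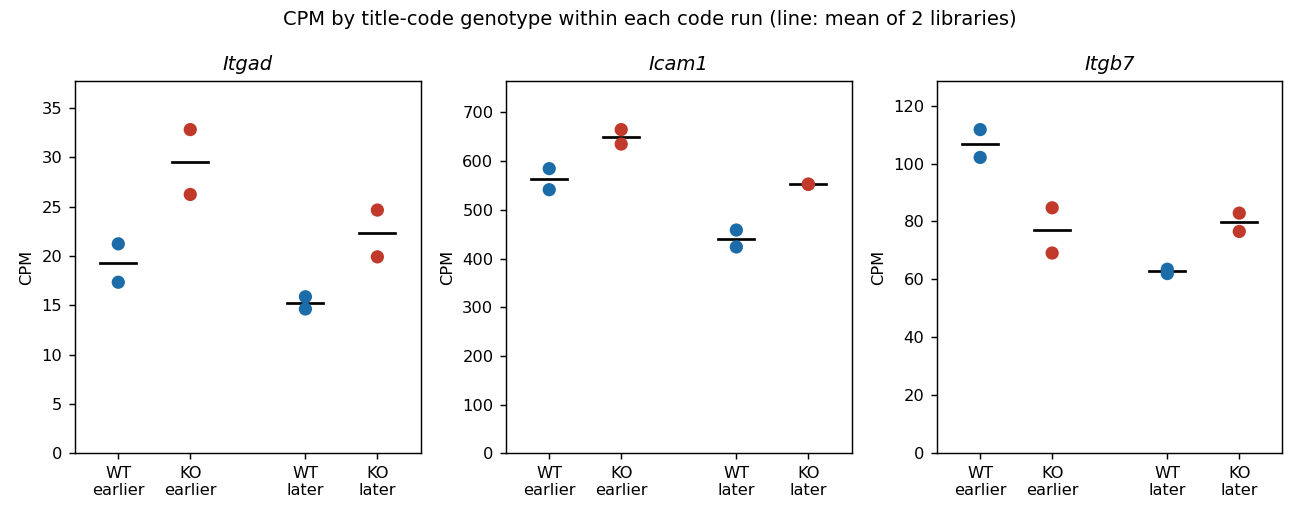
CPM (y axis, from 0) of Itgad, Icam1 and Itgb7 by title-code genotype within the earlier and later code runs, each point a library and each line the mean of 2. Itgad and Icam1 lie higher in KO in both runs, and Itgb7 lies lower in KO in the earlier and higher in the later run.

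The main myeloid chains and F11r had small fitted differences under each reading. Itgax was at 400 and 421 CPM in RMN030 and RMN031, 390.8 and 391.6 in RMN032 and RMN033, 322 and 377 in RMN036 and RMN037, and 360 and 388 in RMN038 and RMN039. Itgb2 (chromosome 10, 77530252 to 77565708, plus strand) was at 305, 268, 270 and 281 CPM in the earlier codes and at 244.7, 252.1, 234.2 and 248.6 in the later codes. Both were lower in every later library than in every earlier one, so their description-code groups did not overlap (exact permutation p = 0.0286 for each, n = 4 each, the smallest such a design gives). Of the 14630 genes tested, 8.82% did not overlap under these codes, 3.74% higher and 5.09% lower in KO. Their fitted values did not pass: the log2 fold change was -0.10 (SE 0.08, edgeR adjusted p = 0.689) for Itgax and -0.16 (SE 0.08, edgeR adjusted p = 0.483) for Itgb2. The mitochondrial share and the red blood cell and fibroblast markers were higher in the same 4 libraries. Monocyte and macrophage markers, cells that also use Itgam and Itgb2, summed to 364 to 466 CPM in the earlier and 516 to 571 CPM in the later run. Most of this sum was Adgre1, at 309 to 414 CPM, which overlapped between the runs, as did Fcgr1, Ly6c2 and Mrc1. Lyz2, Cd163, F13a1 and Ccr2 were higher in every later library than in every earlier one. The part of these markers and of the mitochondrial share in the Itgax and Itgb2 differences was not tested.

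By title code the log2 fold change was 0.01 (SE 0.09) for Itgax and -0.06 (SE 0.10) for Itgb2, and in the undisputed libraries -0.09 (SE 0.13) and -0.20 (SE 0.14). Genes most like Itgax over the 8 libraries were Tubgcp4 (r = 0.976), a part of the gamma-tubulin complex, the semaphorin gene Sema7a (0.964), Xlr3a (0.957), the splicing factor gene Prpf18 (0.953) and Gm13768 (0.952). Itgam, the CD11b chain, ranged from 73.8 to 93.8 CPM and its groups overlapped under every reading, with log2 fold changes of -0.09 (SE 0.18), -0.10 (SE 0.11) and 0.01 (SE 0.11) in the undisputed, title-code and description-code comparisons. F11r ranged from 148 to 185 CPM, with 0.05 (SE 0.16), -0.02 (SE 0.10) and 0.06 (SE 0.09).

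**Figure D5:**
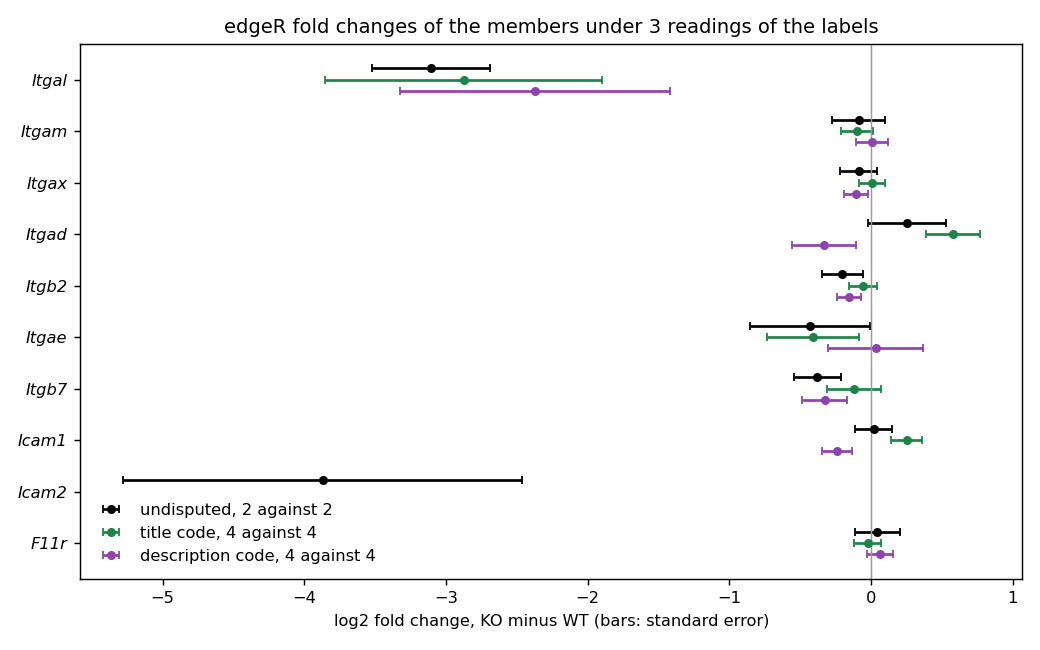
edgeR log2 fold change of each member, KO minus WT (x axis), with its standard error, for the undisputed libraries, the title codes and the description codes. Itgal lies between -3.10 and -2.37 in these edgeR fits (its description-code value is 0.17 in limma voom). Icam1 and Itgad change sign between the title and the description codes, as do Itgam, Itgax, Itgae and F11r. Icam2 is drawn for the undisputed libraries only, as the filter on low counts removed it from the 8-library fits.

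In all, edgeR called 1 of 10 members tested in the undisputed libraries, Itgal, beside 0.794% of the 14727 genes. There 3 members (Itgal, Itgb7 and Icam2) and 1657 genes had an unadjusted p under 0.05, and DESeq2 called 1 member and 293 genes. By title code edgeR called 0 of 9 members and 0% of the 14630 genes, with 3 members (Itgal, Itgad and Icam1) and 672 genes at an unadjusted p under 0.05, and DESeq2 called 0 members and 24 genes. By description code edgeR called 0 of 9 members against 2.02% of the genes (1.43% higher, 0.595% lower), with 2 members (Itgal and Icam1) and 1848 genes at an unadjusted p under 0.05, and DESeq2 called 0 members and 704 genes. The median log2 fold change of the members tested was -0.14, -0.06 and -0.16 in these comparisons, beside -0.002, -0.003 and -0.009 over all genes tested.

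The proteins that switch integrins on and carry their signal were described by a list of 40 genes. In the undisputed libraries 1 of the 40 was lower and 0 higher, beside 0.346% and 0.448% of all genes tested. The gene was Rhoh, a GTPase gene of lymphocytes, which had 498 counts in WT and 0 in KO and was at least 132-fold lower (floor of 3 counts over the group, edgeR adjusted p = 1.5e-04). That bound covers counting error only, and Rhoh passed the filter on low counts through the WT pair alone. Rhoh was at 16.8 and 15.0 CPM in RMN030 and RMN031 and at most 2.10 elsewhere, and T cell markers were high in the same pair. Skap1, a T cell adaptor that couples receptor signals to LFA-1, was at 4.58 and 6.52 CPM there and at most 1.07 elsewhere (log2 fold change -3.24, SE 0.95, edgeR adjusted p = 0.198). Within the earlier run by title code both were lower (edgeR adjusted p = 1.9e-04 for Rhoh and 0.00693 for Skap1). Tln1 (talin 1), Dock8, an exchange factor of leukocyte migration, and Rassf5 had log2 fold changes of -0.36 (SE 0.14), -0.51 (SE 0.15) and -0.54 (SE 0.14) in the undisputed libraries and did not pass. The list's median log2 fold change was -0.21.

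By title code 0 of 38 tested members of that list were called in edgeR, with 1 higher and 5 lower at an unadjusted p under 0.05, beside 672 of all 14630 genes. The smallest p values were those of Vav1, an exchange factor for Rac (log2 fold change -0.32, SE 0.11), the kinase gene Src (-0.45, SE 0.18), Dock8 (-0.29, SE 0.12) and Cyth1, a regulator of beta2 integrin adhesion (-0.23, SE 0.09), each with an edgeR adjusted p of 0.998. The list's median was -0.09. By description code 1 of 38 was lower and 0 higher, beside 0.595% and 1.43% of all genes, and 4 higher and 6 lower had an unadjusted p under 0.05, beside 1848 of 14630 genes. The gene called was Rassf5, which encodes RAPL, a Rap1 effector that binds the LFA-1 alpha chain. It was at 291, 311, 376 and 353 CPM in the earlier codes and at 218, 209, 184 and 217 CPM in the later codes (log2 fold change -0.64, SE 0.09, edgeR adjusted p = 0.0035). The Src family kinase gene Fgr (-0.55, SE 0.14), the Rap1 gene Rap1b (0.36, SE 0.11) and Tln1 (-0.25, SE 0.09) did not pass, and the list's median was -0.09.

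Other integrin chains and counter-receptors were described by a list of 17 genes, of which 16 are in the table and 9 or 10 were tested. None was called in edgeR under the 3 readings, with 3, 1 and 4 at an unadjusted p under 0.05 in the undisputed, title-code and description-code comparisons. Over all genes 1657 of 14727, 672 of 14630 and 1848 of 14630 had such a p. Itgb1, the beta chain of matrix-binding integrins, had a log2 fold change of 0.40 (SE 0.16) in the undisputed libraries and 0.33 (SE 0.10, edgeR adjusted p = 0.149) by description code. Cdh1, the E-cadherin that holds Langerhans cells to keratinocytes and binds the Itgae chain, was at 610 to 882 CPM. The 7 keratinocyte markers summed to 11910 to 15300 CPM, and the part of keratinocyte RNA in the Cdh1 and F11r levels was not tested. The ligands Vcam1 and Icam4 were at 2.46 and 1.92 CPM or less in all libraries. Thy1, a ligand of Mac-1, had the smallest p by title code (log2 fold change -0.61, SE 0.21, edgeR adjusted p = 0.998).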

How the data were processed

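Sorted Langerhans cells of 8 libraries were sequenced. The authors deposited whole-number counts per gene that sum to a different total in each library. The submitters' processing notes name STAR (2.5.2b), featureCounts (1.5.0) and the mouse build GRCm38 (mm10); the annotation release, strand setting and treatment of read pairs are not given in the sources used here. Of counts from 1 to 20, 60.1% were even, so mates may have been counted separately, and counting intervals, which cover counting error only, are then too narrow. No column was left unused (0), and every pair of libraries differed by more than sampling noise (chi-square per gene at least 12.3).

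Ensembl identifiers without their version gave the symbols (25080 matched, 167 not), and coordinates and lengths came from GENCODE M21 (GRCm38). CPM is the count over the column total. Fits used edgeR 4.0.16 in R 4.3.3 on the whole table (filterByExpr, TMM, robust quasi-likelihood F-tests, KO minus WT, Benjamini-Hochberg over all genes, threshold 0.05). The SE is derived from the F statistic. For single values, exact permutation tests (two-sided) were run, for which 4 against 4 cannot go below 0.0286 and 2 against 2 below 0.333. The count model was first tested on simulated data. Alternatives were RLE factors, no filter, 1 CPM, DESeq2 1.42.0, limma 3.58.1 voom with quality weights, leaving out each library, a block for the replicate number, the code run as covariate, each run alone and no RMN030 and RMN031. Members and lists were chosen with earlier results of these data known. Genes were named by rule: all members, called list genes and up to 5 per list with the smallest p in a comparison, and the 5 most like Itgal, Icam1 and Itgax; Cdh1, Icam4, Pxn, Itgb2l, Cd226 and the single marker genes were chosen after their values were seen. Some genes that the rule names are not reported here.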

Additional observations from a re-analysis of the deposited data

Results flagged for a closer look

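Of 48 groups of 4 libraries examined for the members and the chain ratios, 2 held a library far from the others, where chance gives about 1 in 20, or 2.4. Among the KO libraries by title code, Itgax in RMN038 was at 360 CPM against 388.3 to 391.6 CPM in the other three. Among the KO libraries by description code, the ratio of Itgb7 to summed Itgae and Itga4 per kilobase was 12.7 in RMN039 against 4.95 to 6.07 in the other three. RMN039 had the lowest Itgae level of all libraries, at 48 counts.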

How the results depend on the processing

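The call of Itgal in the undisputed libraries held under all 9 alternatives run, with edgeR, DESeq2 or limma adjusted p from 5.3e-09 to 0.00719 and log2 fold changes from -3.46 to -2.81. These include leaving out each library, which takes the spread of a single remaining library from the other genotype. The number of members called stayed at 1 there, including all fits without 1 library (1 to 1). Under the description codes it stayed at 0 in all 15 alternatives. Under the title codes it was 0 in 17 of 18 alternatives and 1 (Itgal) within the earlier code run. The difference between the runs called 0 members, and 1 (Itgal) without a filter on low counts. No paired analysis was possible for the undisputed libraries because WT and KO share no replicate numbers there. With the replicate block, 0 members were called by title code and by description code, and the calls over all genes went from 0 to 0 and from 296 to 174. The description-code log2 fold change of Itgal was -1.26 with the replicate block and 0.17 in limma voom, where -2.37 was fitted. Deviations of same-numbered libraries had r of 0.047 to 0.121 by title code and -0.002 to 0.028 by description code. Not every library correlated best with its own number. By title code, every pair of a WT and a KO library within a code run had a positive r (0.047 to 0.254). Every such pair across the runs had a negative r (-0.17 to -0.072), so these deviations went with the code run. Calls over all genes depended more on the processing than the members did. In the undisputed libraries 117 genes were called, 440 without a filter, 293 with DESeq2 and 263 to 629 without 1 library. By description code 296 were called, 704 with DESeq2 and 140 to 219 without 1 library, and by title code 0, 24 with DESeq2, 1 without a filter and 57 within the earlier run. Signs of the members were kept in 86 of 90, 148 of 162 and 125 of 135 refitted values in the undisputed, title-code and description-code comparisons. The chain ratios did not pass with either length. Without 1 library they could not pass, since 3 against 4 gives an exact permutation p of at least 0.0571. Depth limits Icam2, with 0 to 22 counts per library.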

Other observations

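Itgb2l, a copy of the Itgb2 gene, had its highest levels in RMN036 and RMN037, at 2.96 and 1.80 CPM, and was at most 0.764 CPM in the other 6 libraries. Cd226, a receptor that associates with LFA-1 on T cells, was at 0.611 and 0.269 CPM in RMN030 and RMN031 and had 0 counts in the 6 others. These are 13 counts over all libraries, and at 0 counts a level up to 0.2715 CPM in RMN039 is possible, by counting error only. Paxillin (Pxn), an adaptor at integrin adhesion sites, was at 110 and 106 CPM in RMN036 and RMN037 and at 156 and 165 in RMN038 and RMN039 (log2 fold change 0.60, SE 0.10, edgeR adjusted p = 0.391, within the later run by title code), while it lay between 121 and 137 CPM in the earlier run.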
